A study of Homo sapiens with 108 samples.

Results

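The comparison described here set 92-1 human melanoma cells, sampled 3 h after 2 Gy of X-rays, against unirradiated 92-1 cells of the same X-ray experiment. Its 6 arrays, 3 irradiated and 3 unirradiated, were chosen by their sample titles out of 108 arrays in the series. 92-1 is an established line from a melanoma of the eye. The study exposed 6 melanoma lines (MeWo, HMV-II, HMV-I, Colo679, C32TG and 92-1) to X-rays or to carbon ions, a beam that deposits energy along dense tracks. For each line and beam, RNA was taken from cells given 0 Gy, and at 1 h and 3 h after 2 Gy, with 3 arrays for each condition. The X-ray arrays of 92-1 at 1 h shared their 0 Gy controls with those at 3 h, while carbon ions had 0 Gy arrays of their own. The cells are 1 tumour line, and nothing in the labels tells if replicate arrays stand for separate dishes of cells or for repeats of 1 RNA. The p-values therefore measure only the spread between these arrays, which may be technical.

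Ionizing radiation breaks DNA, and the kinases that sense the breaks stabilise p53, a transcription factor that most cells otherwise degrade through MDM2. Stabilised p53 binds paired copies of a short consensus sequence near its target genes and raises their transcription. The targets stop the cell cycle, repair DNA, tune metabolism or start apoptosis, and some of them feed back to restrain p53. In the hours after irradiation, cells with working p53 also commonly lose transcripts of mitotic genes, as fewer cells enter mitosis and as repressor complexes gain hold on those promoters.

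Total RNA was labelled with biotin and hybridised to 1-colour CodeLink whole human genome arrays of 54359 probes. Spot intensities below are values after quantile normalization over all 108 arrays, and changes are differences of mean log2 intensity with limma's standard error (SE, n = 3 arrays a group). A gene rose or fell where limma's p, adjusted by Benjamini and Hochberg over the 31166 probes tested, was under 0.05. Between 3403 and 4447 probes had no value on the 0 Gy arrays and between 4756 and 5097 on the 3 h arrays. Arrays of a group correlated across probes with r of at least 0.989. Of 16 melanocyte genes with a probe, 14 had deposited intensities above 1 on each array with a value. The pigment genes MLANA, TYRP1, TYR and MITF were among them, and SOX10 and S100B were not. Few defining genes of other cell types lay above 1 throughout: COL1A1 for fibroblasts, EPCAM for epithelium, MS4A1 and CD68 for leukocytes, and RLBP1 for retinal pigment epithelium. Medians of the measured probes were 1.13 to 1.21 on these arrays. OCA2, counted among the 14 with a lowest value of 1.09, therefore lay below the median on that array. The RNA came from whole cultures, so a change in the number of cells of a kind and a change in RNA per cell cannot be told apart.

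At 3 h, transcripts of p53 targets rose while a broader and shallower set of transcripts fell. Of 13137 genes tested, 243 rose (1.85%) and 293 fell (2.23%). Large changes were mostly rises: 19 genes rose and 3 fell beyond 2-fold, and 47 rose and 37 fell beyond 1.5-fold. Groups of 3 arrays did not overlap for 22.7% of the genes, whatever their size of change. The split between rises and falls depended on the scaling of the arrays. Among the 1519 probes called, 28.9% rose, against 48.4% of 901 probes with median centring and 80.9% of 1453 probes with the values as deposited. The median of all probes lay 0.10 (log2) higher as deposited than after quantile normalization, and turned from -0.05 to 0.05, so shallow falls in particular rest on the scaling. A fit of the 6 arrays alone called 223 probes, and leaving out 1 array called 689 to 1610, the fewest without 0 Gy array 1 (689), 3 h array 1 (710) or 0 Gy array 2 (732).

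The list of p53 targets, chosen like all lists here with earlier results of these data known, held 43 genes, of which 35 were tested. Of these, 21 rose and 0 fell by limma, beside 1.85% rises and 2.23% falls among all genes, and at an unadjusted p under 0.05 the counts were 22 and 0, beside 7.95% of all genes upward and 11.3% downward. The median change of the list was 0.69, against -0.03 over all genes. All 21 targets that rose had 3 h arrays above every 0 Gy array, and their changes ran from 0.29 to 2.28. Such separation went with the call, as 530 of all 536 called genes had groups that did not overlap. The 14 targets that did not pass lay between -0.19 and 0.49, and the groups of 1 of them did not overlap, beside 22.7% of all genes. By role, 5 of 6 growth arrest genes rose (median 1.43), 4 of 4 repair genes (0.67), 6 of 8 genes of metabolism, autophagy and secreted signals (1.12), 5 of 13 apoptosis genes (0.29) and 1 of 4 feedback genes (0.10). The count of rises lay between 18 and 22, and that of falls at 0, under every alternative scaling, filter, fit and left-out array tried.

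**Figure D1:**
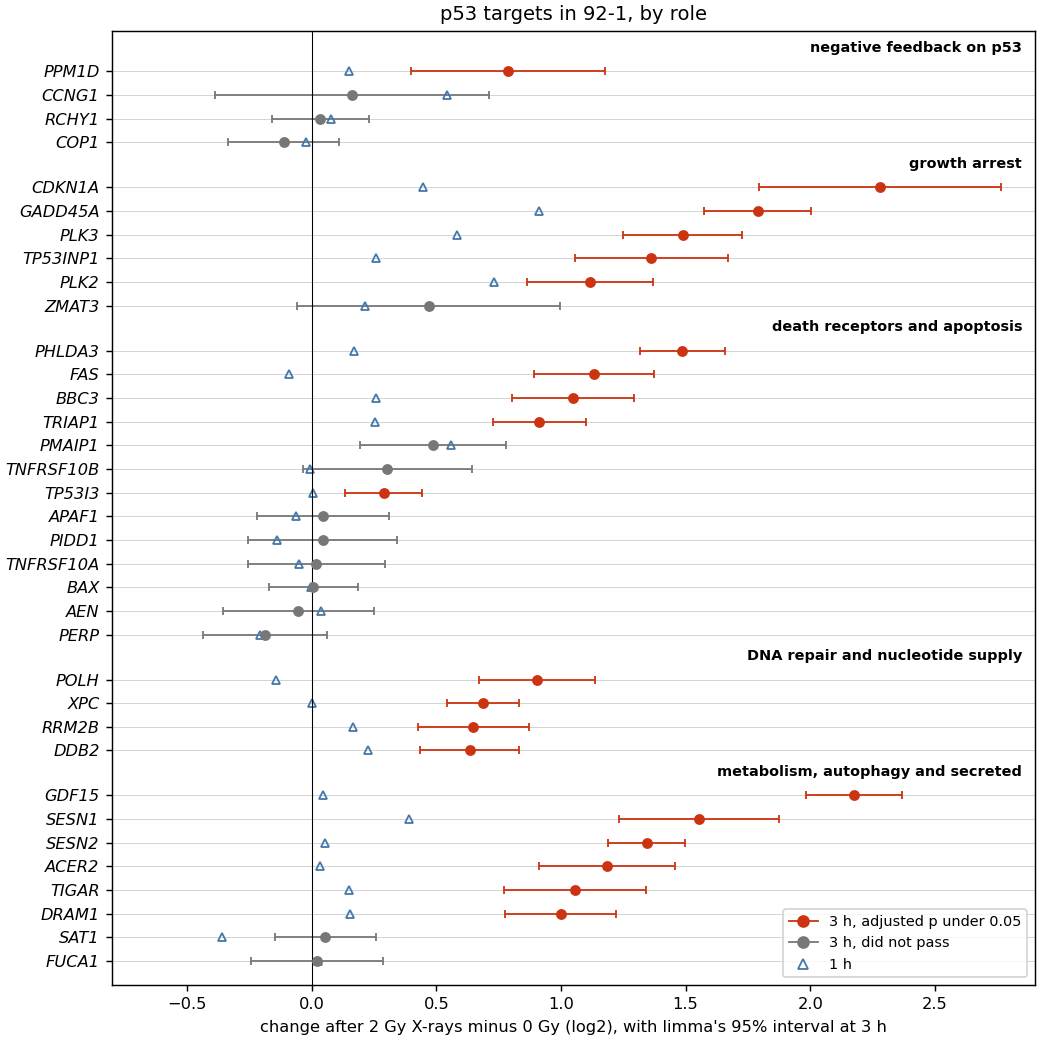
Change of each tested p53 target in 92-1 after 2 Gy of X-rays, in log2 relative to 0 Gy, grouped by the gene's role. Points with bars give the 3 h change with limma's 95% interval, red where it passed and grey where it did not, and open triangles give the 1 h change; CDKN1A (2.28), GDF15 (2.18) and GADD45A (1.79) lie farthest to the right.

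Growth arrest genes had the highest median of the roles. CDKN1A encodes p21, the inhibitor of cyclin-dependent kinases through which p53 stops cells before S phase. Its intensity was 53.8, 57.4 and 63.0 on the 0 Gy arrays and 262, 337 and 253 on the 3 h arrays. The lowest irradiated array stood far above the highest control, and the change was 2.28 ± 0.23 (SE), or 4.86-fold (limma, adjusted p = 1.18e-05, 95% interval 1.79 to 2.77). The CDKN1A spot lay 1.14 log2 below the brightest spot of the 3 h arrays, and saturation was not tested. GADD45A, a stress sensor that binds CDK1 and PCNA, went from 15.4, 17.9 and 16.9 to 59.6, 52.8 and 61.0. Its groups were far apart and each was tight, for a change of 1.79 ± 0.10 (adjusted p = 4.03e-09).

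Polo-like kinases of the stress-inducible kind rose as well. PLK3 went from 3.01, 3.19 and 3.47 to 10.05, 9.80 and 7.46, a change of 1.49 ± 0.11 (limma, adjusted p = 2.29e-07), with the third irradiated array lowest but well clear of the controls. PLK2 went from 5.87, 5.38 and 5.49 to 11.8, 12.8 and 11.8, so that all irradiated arrays held about the same raised level (1.12 ± 0.12, adjusted p = 2.29e-05). TP53INP1, a nuclear protein that helps p53 act and takes part in autophagy, went from 7.26, 7.95 and 10.3 to 19.6, 19.3 and 26.8 (1.36 ± 0.15, adjusted p = 2.12e-05). In both of its groups the third array was highest. ZMAT3, an RNA-binding zinc finger protein, was the growth arrest gene that did not pass: 2.10, 2.89 and 3.44 before, 4.08, 2.27 and 5.99 after (0.47, adjusted p = 0.302), with the second irradiated array inside the control range.

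Among the 4 tested feedback genes, 1 rose. PPM1D, the phosphatase Wip1 that switches the damage signal off, went from 3.29, 4.14 and 4.48 to 6.97, 4.90 and 9.21. The groups did not overlap but the irradiated arrays spread widely, and the change was 0.79 ± 0.18 (limma, adjusted p = 0.0212). CCNG1, a cyclin that recruits a phosphatase to MDM2, overlapped between groups at 17.1, 18.6 and 27.9 against 25.3, 13.6 and 36.3 (0.16, adjusted p = 0.775). The ubiquitin ligases RCHY1 (0.03) and COP1 (-0.11) did not pass either. MDM2, the main ubiquitin ligase for p53, had no value on 1 of the 3 h arrays and was left out of the test. Its deposited intensities were 1.34, 1.31 and 1.45 at 0 Gy and 2.05 and 2.07 on the other 3 h arrays. Both measured irradiated arrays lay above the controls, and a fit on the arrays with a value gave 0.46 ± 0.16 (adjusted p = 0.119).

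Among apoptosis genes the rises were split by gene. PHLDA3, which competes with AKT for membrane lipids, went from 5.97, 6.15 and 6.30 to 18.2, 17.1 and 16.4 (1.49 ± 0.08, limma adjusted p = 2.29e-09). A second PHLDA3 probe showed the same with a larger change, 1.98. The death receptor FAS rose from 2.70, 3.36 and 3.20 to 7.01, 6.08 and 7.19 (1.13 ± 0.11, adjusted p = 1.11e-05), and its second probe by 0.64 (adjusted p = 0.0043). BBC3, the BH3-only protein PUMA, was dim throughout, with 0.804, 0.687 and 0.735 before and 1.68, 1.34 and 1.60 after. Its irradiated arrays all lay above its controls (1.05 ± 0.12, adjusted p = 3.05e-05). TRIAP1, which moves phospholipid in mitochondria and restrains apoptosis, rose from 35.4, 31.9 and 32.2 to 71.5, 57.0 and 59.6 (0.91 ± 0.09, adjusted p = 1.59e-05). TP53I3, a quinone oxidoreductase, rose least of all the targets that passed, by 0.29 ± 0.07 (adjusted p = 0.0303).

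Other apoptosis genes did not pass. BAX, which opens the outer membrane of mitochondria, was bright and level at 48.6, 42.5 and 46.8 before and 44.0, 46.4 and 47.9 after (0.01, limma adjusted p = 0.979), with its groups overlapping. Its other probes gave 0.04 and 0.56 (adjusted p = 0.0678 for the latter), so the probes gave different values. PMAIP1, the BH3-only protein NOXA, had groups that did not overlap, at 10.3, 12.4 and 11.8 against 16.4, 15.2 and 16.5, and narrowly missed the threshold (0.49, adjusted p = 0.0528). TNFRSF10B, a receptor for the ligand TRAIL, overlapped between groups (0.30, adjusted p = 0.295). The nuclease AEN (-0.05, adjusted p = 0.872) and the membrane protein PERP (-0.19) did not pass.

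All 4 repair genes rose. POLH, the polymerase that copies past damaged bases, went from 2.30, 2.39 and 2.37 to 4.01, 3.98 and 5.36 (0.90 ± 0.11, limma adjusted p = 9.27e-05). XPC, which finds distorted DNA for excision repair, went from 9.44, 9.71 and 9.57 to 15.5, 15.7 and 15.1. Its arrays were very close together within each group (0.69 ± 0.07, adjusted p = 9.99e-06), while a second XPC probe gave 0.04 (adjusted p = 0.790). RRM2B, a ribonucleotide reductase subunit that supplies nucleotides for repair, rose by 0.65 ± 0.11 (adjusted p = 0.00192). DDB2, the partner of XPC in finding damage, rose from 1.38, 1.31 and 1.63 to 2.35, 2.00 and 2.33 (0.63 ± 0.09, adjusted p = 8.75e-04). The lowest irradiated array of DDB2 was above its highest control.

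Genes of secreted signals, metabolism and autophagy made up the rest. GDF15, a secreted stress cytokine, went from 7.5, 6.97 and 8.01 to 37.6, 33.7 and 30.5. No other gene of the list had so small an adjusted p (2.18 ± 0.09, 4.52-fold, limma adjusted p = 2.21e-10). The sestrins, which lower mTORC1 signalling and oxidative stress, both rose: SESN1 from 5.72, 6.82 and 7.88 to 20.1, 15.7 and 24.8 (1.55 ± 0.15, adjusted p = 7.93e-06). SESN2 went from 4.63, 4.92 and 4.72 to 12.6, 11.5 and 12.2, with little spread in either group (1.34 ± 0.07, adjusted p = 2.29e-09). The alkaline ceramidase ACER2 rose by 1.18 ± 0.13 (adjusted p = 2.67e-05). TIGAR, a phosphatase that diverts sugar from glycolysis, rose from 21.3, 22.6 and 22.1 to 49.5, 40.1 and 48.1 (1.06 ± 0.14, adjusted p = 1.70e-04), and by 1.05 with its second probe. DRAM1, a lysosomal protein that promotes autophagy, rose by 1.00 ± 0.11 (adjusted p = 2.54e-05). SAT1, which acetylates polyamines (0.05), and the fucosidase FUCA1 (0.02) did not pass.

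Promoter sequences show where paired p53 consensus copies lie close to the start of these genes. RefSeq windows (GRCh38.p14) from 250 bases before to 50 after each start were searched on both strands for 2 adjoining half-sites of 10 letters. Each half-site had to hold the core CNNG with A or T at each N, with a spacer of at most 1 base and at most 3 mismatches among the 12 flanking letters. A window was given for 29 of the 35 tested targets and for 10 of the 15 genes with the largest rises. Such a match lay in 5 of those 29 targets (17.2%), 4 of 17 that rose (23.5%) and 1 of 12 that did not pass (8.33%), against 278 of 27305 genes with any window (1.02%) and 94 of 10597 genes tested (0.887%). Over all genes that rose it lay in 5 of 211 (2.37%), and over those that fell in 0 of 220. The list's choice as p53 targets fixes much of its share. The counts of 4 of 17 and 1 of 12 are too small to set the targets that rose apart from the others. The matches are printed below on the gene's own strand, because they are the sequences through which p53 could contact the genes just described. Capitals mark the matched half-sites with their spacer, and lower case the bases on either side.
DDB2 (chr11:47214975-47215003, + strand): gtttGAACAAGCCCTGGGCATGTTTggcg
FAS (chr10:88991305-88991332, + strand): tcctGGACAAGCCCTGACAAGCCAagcc
AEN (chr15:88621302-88621329, + strand): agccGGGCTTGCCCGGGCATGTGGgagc
GDF15 (chr19:18386182-18386207, + strand): gcacAGCCATGCCCGGGCAAGAACtc
SESN1 (chr6:109009014-109009041, - strand): gtctGGACAAGTCTCCACAAGTCAgaaa
RPS27L (chr15:63157523-63157550, - strand): ggagGGCCTAGAGCAGACAAGCCCgccc
The DDB2 match had 0 mismatches and a spacer of 1 base, FAS and AEN had 2 mismatches, and GDF15, SESN1 and RPS27L had 3. Of these genes, DDB2, FAS, GDF15 and SESN1 rose as given above, while AEN did not pass. RPS27L, a ribosomal protein-like gene counted in the list of ribosomal proteins, rose by 0.45 (limma, adjusted p = 0.0347). A letter match is a description of the sequence and not a measured binding site, and genes without one, such as CDKN1A, may be bound outside this window.

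The precursor of a p53-regulated microRNA was also on the array. MIR34AHG, the transcript that hosts miR-34a, rose from 1.02, 0.746 and 0.915 to 1.62, 1.75 and 1.5, with no overlap of the groups (0.87 ± 0.12, limma adjusted p = 3.38e-04). It was looked up after its values were seen, and its probe is tied to an expressed sequence tag. The array did not measure the mature microRNA, which RefSeq places at chr1:9151735-9151756 on the - strand of GRCh38.p14. Its sequence is shown with the seed (bases 2 to 8) in capitals, since the seed sets which transcripts it can pair with.
hsa-miR-34a-5p: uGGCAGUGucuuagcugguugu

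The 15 largest rises held 10 genes of the p53 list and 5 others. ST18, a zinc finger transcription factor, went from 4.26, 4.30 and 4.47 to 14.0, 15.8 and 13.6. Both groups were tight and far apart (1.73 ± 0.09, limma adjusted p = 9.08e-10). ATF3, a stress-induced transcription factor of the immediate early group, went from 3.34, 4.03 and 4.26 to 9.43, 9.36 and 9.09 (1.27 ± 0.11, adjusted p = 1.32e-06). ENC1, an actin-binding Kelch protein, rose by 1.26 ± 0.11 (adjusted p = 2.21e-06), and the uncharacterised transcript ZNF594-DT by 1.23 ± 0.10 (adjusted p = 1.10e-06). SLC30A1, the zinc exporter of the cell membrane, rose from 17.6, 18.7 and 18.6 to 38.7, 40.6 and 42.5 (1.15 ± 0.08, adjusted p = 6.21e-08), and its second probe gave 1.09. All 15 kept their call and direction under each of 15 alternatives, including the leaving out of each array.

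**Figure D2:**
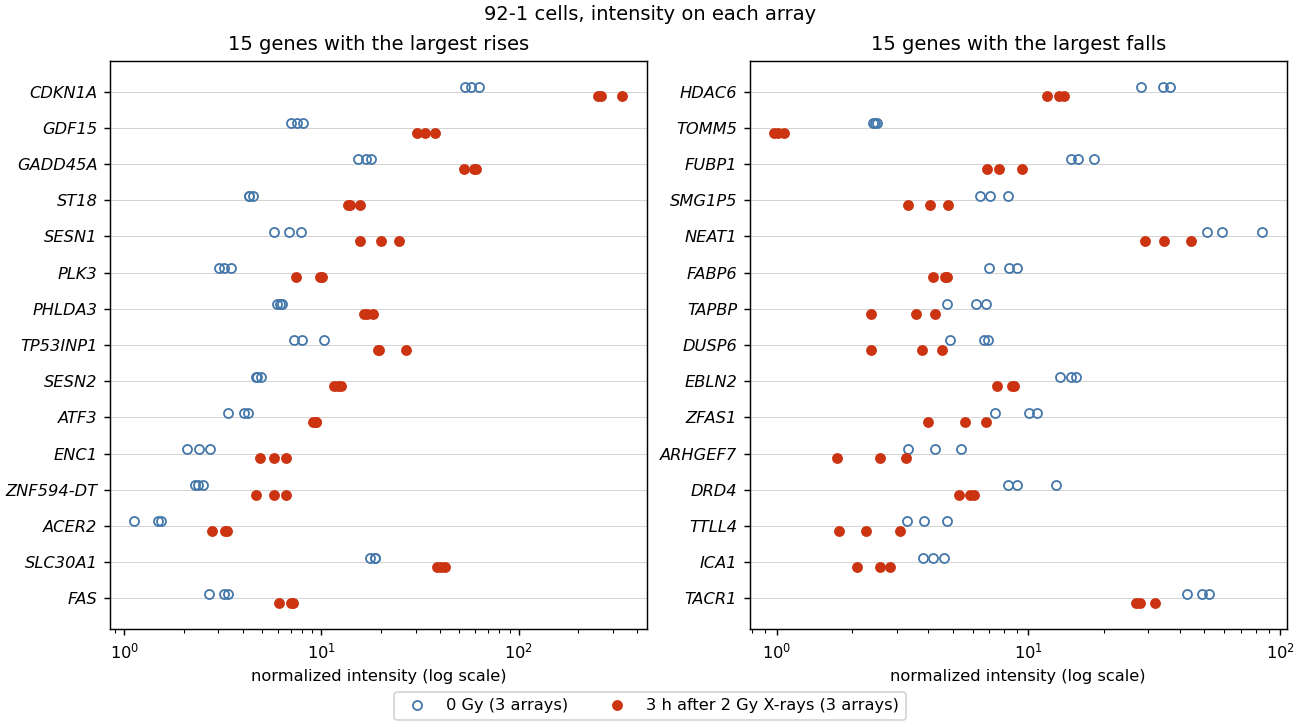
Normalized intensity (log scale) on each of the 6 arrays for the 15 largest rises and the 15 largest falls in 92-1, open circles for 0 Gy and filled circles for 3 h after 2 Gy of X-rays. No gene's groups overlap, which the choice of genes required; CDKN1A climbs from at most 63.0 to at least 253, and the HDAC6 probe drops from at least 28.1 to at most 13.9.

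The falls were shallower than the rises. HDAC6, a cytoplasmic deacetylase of tubulin, gave the largest: 36.6, 28.1 and 34.1 at 0 Gy against 13.2, 13.9 and 11.9 at 3 h (-1.34 ± 0.11, limma adjusted p = 4.65e-07). At 1 h the same probe was at 74.1, 75.0 and 79.0, above every control array, so it rose before it fell. A second HDAC6 probe did not pass, with 10.4, 11.8 and 12.6 at 0 Gy, 10.5, 11.7 and 10.4 at 1 h and 10.9, 11.3 and 10.4 at 3 h (-0.09, adjusted p = 0.602) and groups that overlapped. The annotation ties the probe that fell to an expressed sequence tag and to no RefSeq transcript, so its values cannot be read as the level of HDAC6 mRNA. TOMM5, a subunit of the mitochondrial import channel, went from 2.51, 2.47 and 2.43 to 1.01, 1.07 and 0.978 (-1.28 ± 0.08, adjusted p = 2.15e-08). FUBP1, which binds single-stranded DNA and RNA, went from 14.8, 15.7 and 18.2 to 7.65, 6.83 and 9.40 (-1.04 ± 0.11, adjusted p = 1.59e-05), while its second, dimmer probe gave -0.08 (adjusted p = 0.764).

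Of the other 12 named falls, EBLN2, a gene derived from an ancient bornavirus, went from 13.4, 14.8 and 15.4 to 8.61, 8.78 and 7.5 (-0.81, limma adjusted p = 8.65e-04). NEAT1, the long RNA that builds paraspeckles, went from 84.9, 58.8 and 51.1 to 44.1, 29.1 and 34.4, with wide spread in both groups (-0.84 ± 0.16, adjusted p = 0.00549). DUSP6, a phosphatase induced by and acting on ERK, went from 4.87, 6.66 and 6.88 to 3.78, 2.36 and 4.56, and its groups were close to touching (-0.82, adjusted p = 0.0277). The remaining falls were SMG1P5 (-0.85), FABP6, a bile acid-binding protein (-0.83), TAPBP, the peptide loader tapasin (-0.82), ZFAS1, a host of small nucleolar RNAs (-0.80), ARHGEF7, an activator of Rac (-0.80), DRD4, a dopamine receptor (-0.78), TTLL4, which adds glutamate chains to proteins (-0.76), ICA1 (-0.75) and TACR1, the substance P receptor (-0.73). The probes read here for FUBP1, NEAT1, ICA1 and TACR1 are, like that of HDAC6, tied to expressed sequence tags and to no RefSeq transcript, so the same limit holds for them. The probes of TOMM5, SMG1P5 and ZFAS1 are tied to other sequences and likewise to no RefSeq transcript. Among the 15 largest rises this is so for ACER2, SLC30A1 and ZNF594-DT. SMG1P5 has near-identical copies related to SMG1, so its probe may not be specific. Second probes of SMG1P5 (-0.45, limma adjusted p = 0.0649), NEAT1 (-0.39, adjusted p = 0.116) and ARHGEF7 (-0.16, adjusted p = 0.506) gave smaller changes and did not pass. Of the 15 falls, 7 held in all 15 alternatives and 8 lost their call in 1 to 9 of them, ARHGEF7 (9), DUSP6 (7), TAPBP, TTLL4 and TACR1 (6 each), DRD4 (4), NEAT1 and ZFAS1 (1 each). In 7 of the 15 falls, and in 5 of the 15 largest rises, the second 3 h array was the lowest of its group and the third the highest, and the part of this in the falls was not tested.

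Genes of G2 phase and mitosis leaned down, with few passing the test. Of 42 listed, 39 were tested: 4 fell and 1 rose, beside 2.23% falls and 1.85% rises among all genes, and 18 and 1 did so at an unadjusted p under 0.05, a level that 11.3% and 7.95% of all genes reached. The median was -0.30 against -0.03 over all genes, and 32 of 39 changes lay below 0. The scaling bears on this: the median was -0.21 with 2 falls after median centring and -0.14 with 0 falls as deposited. ASPM, which organises spindle poles, went from 45.5, 47.0 and 42.5 to 35.0, 31.6 and 33.6 (-0.43 ± 0.07, limma adjusted p = 0.00218). HMMR, a spindle-assembly protein and hyaluronan receptor, went from 23.7, 24.9 and 24.4 to 17.2, 17.8 and 18.4 (-0.45 ± 0.07, adjusted p = 0.0016). Irradiated arrays of both genes were below every control with little spread. The kinetochore kinesin CENPE (-0.51 ± 0.12, adjusted p = 0.0197) and the kinetochore protein CENPF (-0.39 ± 0.11, adjusted p = 0.0483) also fell.

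MAD2L1, a spindle checkpoint protein, went the other way, from 69.5, 68.2 and 72.1 to 102, 82.0 and 98.1 (0.42 ± 0.11, limma adjusted p = 0.0347). Its call was lost after median centring, in a fit of these 6 arrays alone, and without any 1 of them except the second 3 h array. The larger mitotic changes that did not pass had spread-out arrays, as in ANLN, the cytokinesis scaffold anillin, at 4.87, 7.06 and 7.93 against 3.59, 2.21 and 5.88 (-0.85, adjusted p = 0.0816). TOP2A, which untangles chromosomes, gave 6.31, 8.38 and 9.54 against 5.01, 2.54 and 7.45 (-0.80, adjusted p = 0.148), with overlapping groups. CDK1, the kinase that starts mitosis (0.16), and its partner CCNB1 (-0.08, adjusted p = 0.69) did not pass. By role, the medians were -0.45 for kinesins and spindle proteins, of which 2 of 14 fell, and -0.35 for centromere and chromosome proteins, of which 2 of 10 fell. They were -0.25 for the checkpoint genes and -0.11 for the cyclins and CDK1.

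Irradiated arrays 2 and 3 stood at opposite ends of the spread. The second 3 h array was the lowest of its group for 28 of 39 mitotic genes and the third the highest for 27. Averaged over 37 mitotic genes with values on all 18 arrays, the 3 h arrays stood at -0.23, -0.52 and -0.06 relative to the mean of the controls, which themselves ran over -0.13, 0.02 and 0.11. The third irradiated array therefore overlapped the controls. Without the second 3 h array the list's median was -0.16 and 2 genes fell, and without the third 3 h array it was -0.37 and 9 fell. Leaving out any other one of these 6 arrays left 2 or 3 falls. For 33 p53 targets the same averages were 0.78, 0.61 and 0.82 at 3 h and -0.09, 0.01 and 0.07 at 0 Gy. Those groups were far apart, with the second irradiated array again lowest. The part of differences between these arrays in the results was not tested.

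**Figure D3:**
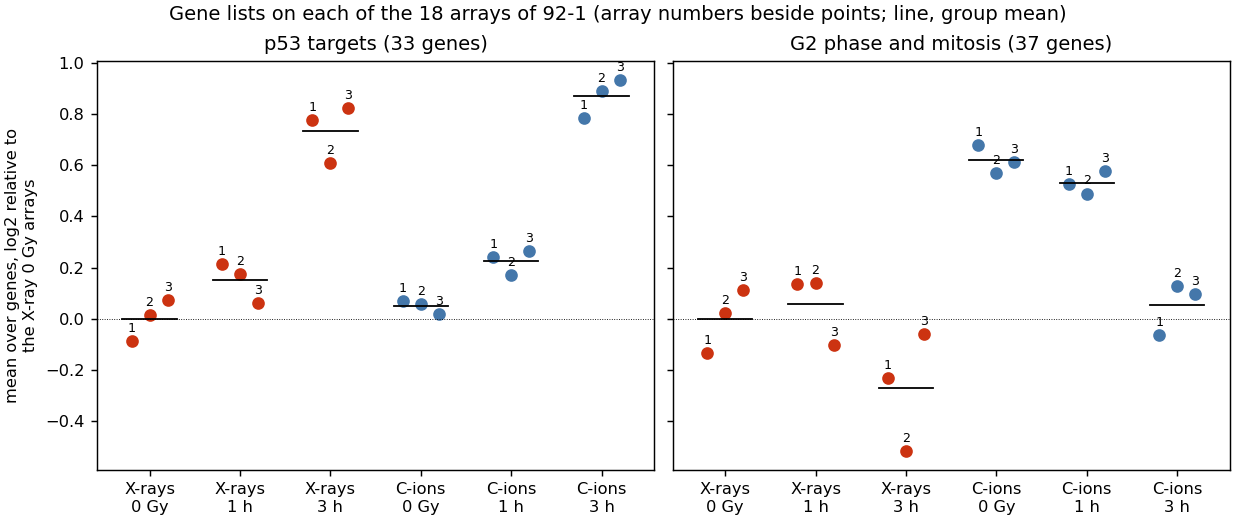
Mean over the genes of a list on each of the 18 arrays of 92-1, in log2 relative to the X-ray 0 Gy arrays, with array numbers beside the points and lines at group means. The p53 targets (33 genes) reach 0.61 to 0.82 at 3 h after X-rays and 0.78 to 0.93 after carbon ions; the mitotic genes (37 genes) range from -0.52 to -0.06 at 3 h after X-rays, and the carbon ion controls start higher, at 0.57 to 0.68.

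Promoters of the mitotic genes share short elements. The same RefSeq windows held TTTGAA or TTCGAA, the core of the cell cycle homology region that repressor complexes bind, in 25 of 34 tested mitotic genes with a window (73.5%), against 1723 of 10597 genes tested (16.3%) and 19.5% of all genes with a window. CCAAT, the element of the factor NF-Y, lay in 30 of 34 (88.2%), against 42.8% of genes tested and 39.7% of all. Both strands were searched, and the elements were counted on their own. The list's choice as mitotic genes fixes much of this, so it says nothing about irradiation. The 120 bases before the start of 3 of the genes that fell are printed on the gene's own strand, with the elements in capitals (CCAAT reads ATTGG where it lies on the opposite strand, and TTTGAA then reads TTCAAA), because they show the repeated CCAAT copies close together.
ASPM (chr1:197146670-197146789, - strand): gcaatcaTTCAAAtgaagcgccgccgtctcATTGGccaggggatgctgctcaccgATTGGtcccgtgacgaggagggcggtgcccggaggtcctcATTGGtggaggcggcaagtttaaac
HMMR (chr5:163460512-163460631, + strand): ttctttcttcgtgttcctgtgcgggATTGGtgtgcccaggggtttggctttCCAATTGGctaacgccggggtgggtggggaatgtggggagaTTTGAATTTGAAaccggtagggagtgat
CENPF (chr1:214603075-214603194, + strand): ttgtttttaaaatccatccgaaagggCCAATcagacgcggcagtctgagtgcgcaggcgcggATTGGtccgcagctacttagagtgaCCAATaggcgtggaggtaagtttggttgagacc
CENPE, which fell as well, had neither element in its window, and MAD2L1, which rose, had both.

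Few p53 targets had risen at the earlier time. At 1 h, 41 genes were above the shared controls (0.312%) and 94 below (0.716%), and 4 of 35 p53 targets had risen, with a median of 0.08. GADD45A was already at 32.9, 32 and 29.2 at 1 h, between the levels of 0 Gy and 3 h (0.91, limma adjusted p = 1.24e-04). PLK3 (0.58, adjusted p = 0.0113), PLK2 (0.73, adjusted p = 0.00333) and PMAIP1 (0.56, adjusted p = 0.0485) were the other targets up by then. CDKN1A stood at 70.7, 64.0 and 109 at 1 h, above its controls on every array yet not past the threshold (0.45, adjusted p = 0.374). GDF15 still overlapped its controls, with 7.41, 7.59 and 8.18.

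Tested directly between the irradiated arrays, 3 h lay above 1 h for 114 genes (0.868%) and below it for 75 (0.571%). Among p53 targets, 19 of 35 were higher at 3 h and 0 lower, or 22 and 0 at an unadjusted p under 0.05 (6.58% and 8.78% of all genes). The largest gains from 1 h to 3 h were GDF15 (2.13), CDKN1A (1.83), ST18 (1.39), PHLDA3 (1.32) and SESN2 (1.29). The 15 largest rises at 3 h were chosen by their 3 h arrays, which favours a high 3 h level. Of these, 14 exceeded their 1 h level by the same test. The exception was ATF3, which had reached 8.58, 8.61 and 7.57 by 1 h and held its level after that (3 h minus 1 h 0.17, adjusted p = 0.543).

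Immediate early genes, which respond to stimuli before any new protein is made, included genes that were up at 1 h and down again by 3 h. Of 21 tested, 7 rose at 1 h and 0 fell, beside 0.312% and 0.716% of all genes. At 3 h 3 rose and 0 fell, beside 1.85% and 2.23% of all genes. Between the times, 5 were lower at 3 h than at 1 h and 1 was higher, beside 0.571% and 0.868% of all genes. CCN1, a secreted matrix protein, read 6.42, 7.95 and 6.63 at 0 Gy, 12.5, 13 and 11 at 1 h and 5.33, 5.35 and 4.95 at 3 h. The 1 h arrays of CCN1 exceeded all others, and the drop from 1 h to 3 h was -1.22 (limma, adjusted p = 6.20e-05). The change of CCN1 from 0 Gy to 3 h did not pass (-0.42, adjusted p = 0.0913). Its relative CCN2 read 1.96, 2.69 and 2.09, then 4.04, 3.99 and 4.0, then 1.86, 1.77 and 1.89. CCN2 thus ended just below its controls, at a change from 0 Gy that did not pass (-0.28, adjusted p = 0.108), and 3 h minus 1 h was -1.12 (adjusted p = 1.87e-06). Besides ATF3, the genes up at 3 h were IER5, which went from 41.9, 40.7 and 41.0 to 80.0, 66.9 and 65.7 (0.78 ± 0.09, adjusted p = 5.69e-05), and IER3 (0.51, adjusted p = 0.0169). The other named drops from 1 h to 3 h were the HDAC6 probe (-2.55), TOMM5 (-1.11) and ZFAS1 (-1.05).

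**Figure D4:**
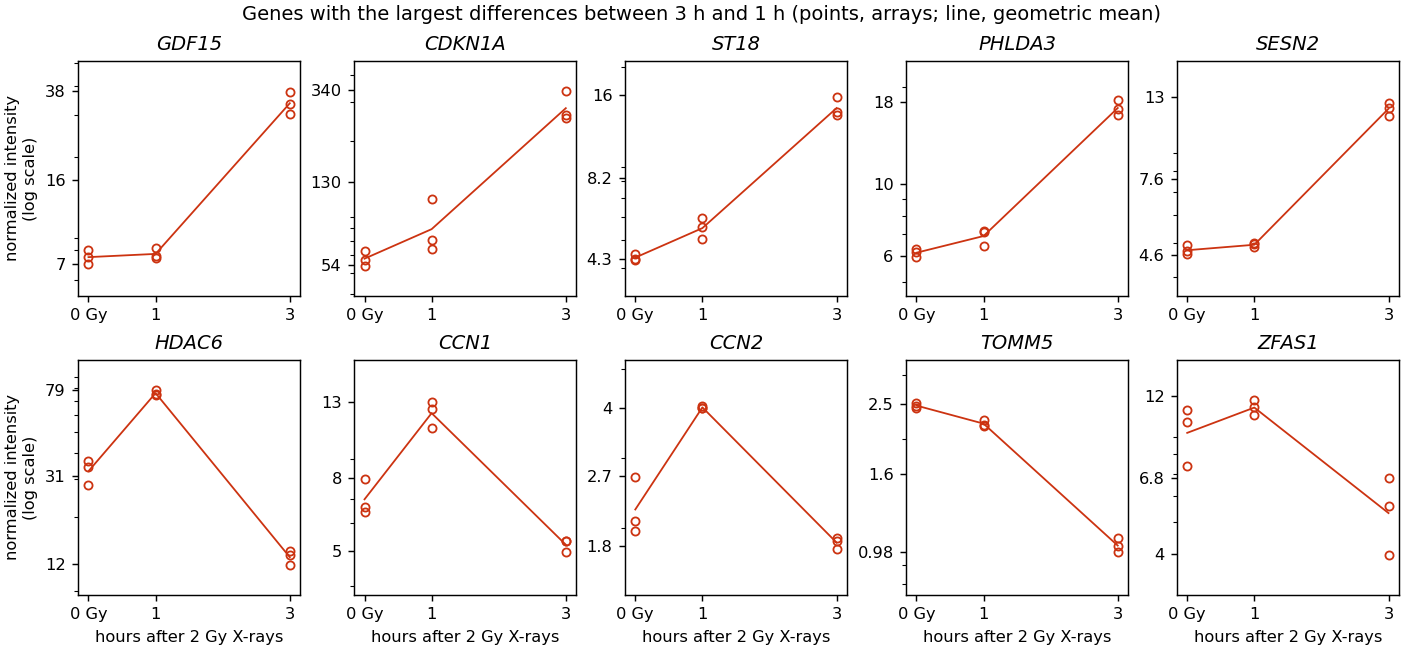
Normalized intensity (log scale) in 92-1 at 0 Gy and at 1 h and 3 h after 2 Gy of X-rays for the genes with the largest differences between 3 h and 1 h; points are arrays and lines join geometric means. GDF15 stays flat to 1 h and then climbs, and the HDAC6 probe peaks at 1 h and ends below its start. CCN1 and CCN2 peak at 1 h and lie below their controls at 3 h, by changes from 0 Gy that did not pass.

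At 3 h after carbon ions 282 genes rose (2.15%) and 1192 fell (9.08%), each against carbon ion controls. This count moved with the scaling and with 1 array, from 4417 probes called to 1550 as deposited and 1703 without carbon ion 0 Gy array 3. Of 34 p53 targets in both fits, 22 rose after carbon ions and 12 did not pass, with a median of 0.79. The difference between the beams passed for 0 of 34 by limma, and at an unadjusted p under 0.05 for 1 in favour of X-rays and 3 in favour of carbon ions, where 6.73% and 3.16% of all genes did so. For CDKN1A the difference was 0.11 with a 95% interval of -0.58 to 0.80, which leaves room for a change in either direction. GDF15 was measured more tightly, at -0.06 with an interval of -0.34 to 0.21, although it began lower in the carbon ion controls (2.91, 2.61 and 3.17) and reached 14.0, 13 and 13.9. FAS rose by 1.61 after carbon ions and 1.13 after X-rays, a difference of -0.48 (interval -0.82 to -0.14) that did not pass over all probes (adjusted p = 0.383).

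All 15 named rises were called after carbon ions too, and all 15 named falls had the same sign there, with 7 of them called. Over all 13124 genes, 4866 changes lay above 0 after carbon ions and 8258 below, so most genes shared the sign of the falls. Of the 242 genes that rose after X-rays and were in both fits, 79 also rose after carbon ions, or 32.6% of the X-ray rises and 28.0% of the carbon ion rises, and 1 fell. Called or not, 214 of the 242 had the same sign after carbon ions. Of 293 falls, 146 were shared, or 49.8% of the X-ray falls and 12.2% of the carbon ion falls, and 2 went the other way, while 274 of the 293 had the same sign. Mitotic genes fell in 24 of 39 cases after carbon ions, beside 9.08% of all genes. Their median was -0.62 against -0.06 over all genes, and all 39 lay below 0. The difference between the beams passed for 0 of them by limma. At an unadjusted p under 0.05 it did so for 14 with the smaller fall after X-rays and 0 with the larger. Over all genes, 6.73% were higher and 3.16% lower in that difference at this level. The carbon ion controls held more of these transcripts than the X-ray controls, at 0.57 to 0.68 in the mean over 37 genes. After irradiation the arrays of the beams lay at -0.52 to -0.06 and -0.06 to 0.13. The part of the controls' level in the difference was not tested.

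By limma, 2 probes passed for the difference between the beams, and 1 of them stood for a tested gene. FAM174A, a small membrane protein, went from 1.14, 1.16 and 1.19 to 2.59, 2.50 and 2.48 after X-rays (1.12 ± 0.08, limma adjusted p = 1.31e-07). After carbon ions it went from 1.71, 1.92 and 1.83 to 1.97, 1.64 and 1.75, with overlapping groups (-0.03). Its carbon ion controls thus all lay above its X-ray controls. At 3 h its carbon ion arrays all lay below its X-ray arrays. The part of the controls' level in the difference between the beams was not tested. The difference of 1.14 ± 0.11 passed (adjusted p = 2.81e-04), and it was 1 gene of 13124 higher after X-rays (0.00762%) against 0 lower (0%), beside 883 and 415 at an unadjusted p under 0.05. Next in order, and not past the threshold, were FAM83D, a spindle protein (0.72, adjusted p = 0.0541), and MAGOH, of the exon junction complex (0.89, adjusted p = 0.113). On the other side came the zinc finger gene ZNF215 (-0.83, adjusted p = 0.0541), ZC3HAV1, an antiviral RNA-binding protein (-0.63, adjusted p = 0.147), and RAB12, a small GTPase (-0.55, adjusted p = 0.147).

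Set against the other lines, part of the p53 targets rose more in 92-1 at 3 h after X-rays. The difference between its change and the mean change of the other 5 lines passed upward for 64 of 11614 genes (0.551%) and downward for 63 (0.542%). The test covers the spread between arrays and not that between lines. Of 33 p53 targets, 14 rose more in 92-1, 0 rose less and 19 did not pass, or 17 and 0 at an unadjusted p under 0.05 (4.93% and 10.5% of all genes). The median change over the list was 0.69 in 92-1, 0.50 in C32TG, 0.40 in HMV-II, 0.15 in MeWo, 0.12 in HMV-I and 0.08 in Colo679. GDF15 led the differences: it rose by 2.18 in 92-1, 1.36 in C32TG, 0.31 in HMV-I, 0.20 in HMV-II, 0.15 in MeWo and 0.05 in Colo679 (difference 1.76, limma adjusted p = 1.31e-14). In Colo679, however, the GDF15 spot was the brightest of the array, and in HMV-II it lay 0.17 log2 below the brightest, so a rise there could not be read in full.

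CDKN1A rose by 2.28 in 92-1, 1.78 in C32TG, 1.55 in Colo679, 0.63 in HMV-II, 0.44 in HMV-I and 0.42 in MeWo (difference 1.31, limma adjusted p = 1.72e-11). Its spot lay within 0.51 log2 of the brightest in HMV-II, 0.34 in C32TG and 0.24 in Colo679, which limits this comparison too. GADD45A (difference 1.23), ST18 (1.37), BBC3 (0.96), PLK2 (0.94), PLK3 (0.84), SESN1 (0.76), TIGAR (0.71), SESN2 (0.64), TP53INP1 (0.63), DRAM1 (0.60), POLH (0.51), DDB2 (0.49) and XPC (0.37) also rose more in 92-1 than in the mean of the others. C32TG was nevertheless above 92-1 for SESN1 (1.68) and TP53INP1 (1.5). Of the 15 named rises, 10 were larger in 92-1 than in each other line, 14 had the same sign in all lines, and 12 of 14 tested passed the difference. They were chosen for their rise in the same 92-1 arrays, which favours 92-1 in these counts. FAM174A rose in 92-1 by 1.12, with -0.04 in C32TG, -0.38 in Colo679, -0.85 in HMV-I, 0.22 in HMV-II and -0.25 in MeWo (difference 1.38).

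**Figure D5:**
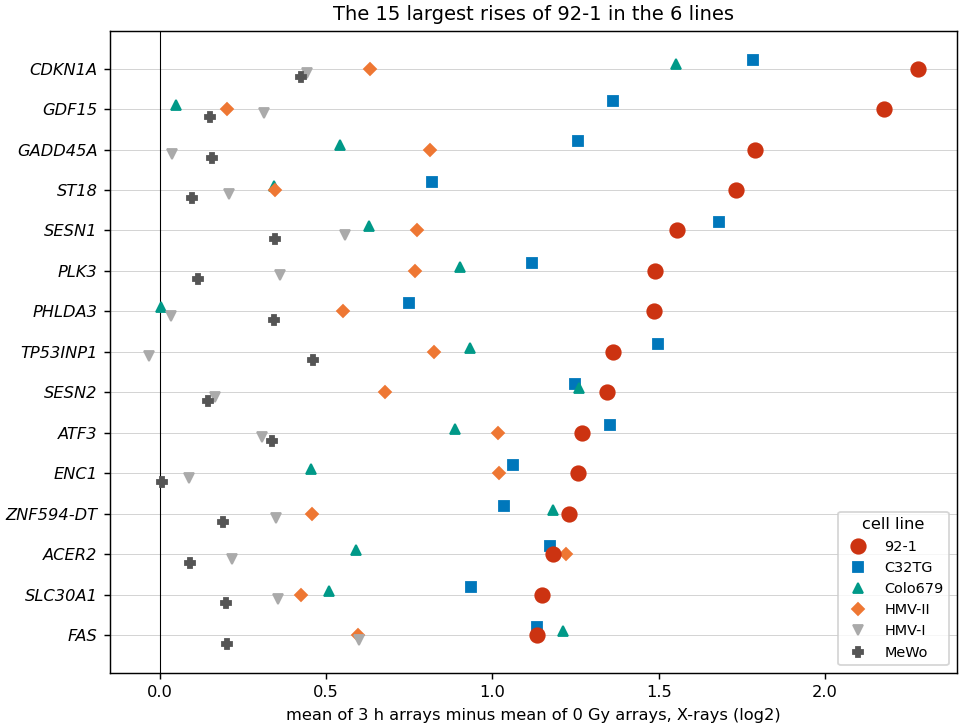
Change at 3 h after 2 Gy of X-rays (log2, mean of the 3 h arrays minus mean of the 0 Gy arrays) of the 15 largest rises of 92-1 in all 6 lines; large markers are 92-1 and small ones the other lines. For 10 of the 15 genes, which were chosen for their rise in 92-1, the 92-1 marker lies farthest to the right. C32TG lies above the 92-1 marker for SESN1, TP53INP1 and ATF3.

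Some falls also differed between lines. The HDAC6 probe fell by 1.34 in 92-1 against 0.78 in C32TG, 0.67 in Colo679 and 0.13 to 0.16 in the other 3 lines (difference -0.96, limma adjusted p = 3.37e-05). TOMM5 (-0.81) and ICA1 (-0.69) fell more in 92-1 as well. FOSL1, a subunit of the AP-1 factor, differed by -0.69, with a value of -0.23 in 92-1 that did not pass beside 1.00 in Colo679, 0.58 in HMV-I and 0.06 to 0.34 in the other lines. The non-coding LINC01023 differed by -0.68 and did not pass within 92-1 (-0.39, adjusted p = 0.314). Of the 15 named falls, 7 had the same sign in all lines and 5 of 13 tested passed the difference. They too were chosen from the 92-1 arrays, which favours a larger fall there. The median change of the mitotic genes was -0.30 in 92-1, -0.25 in Colo679, -0.16 in HMV-II, -0.08 in HMV-I, -0.04 in MeWo and 0.04 in C32TG.

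In the other gene lists at 3 h, 0 to 2 genes passed in either direction apart from the immediate early genes, beside 1.85% rises and 2.23% falls among all genes, and a single call in lists of this size is no result about the list. Of 21 DNA damage signalling and repair genes outside the p53 list, ERCC1, a nuclease subunit of excision repair, rose (0.40, limma adjusted p = 0.0159) and RAD52, of homologous recombination, fell (-0.52, adjusted p = 0.0135). Of 15 BCL2 family genes, BBC3 and BAK1, a mitochondrial pore former (0.53, adjusted p = 0.00554), rose and 0 fell. Single members rose among heat shock chaperones (HSPA1A, 0.53, of 8), NRF2 targets (HMOX1, 0.35, of 6), the integrated stress response (SESN2, of 11) and ribosomal proteins (RPS27L, 0.45, of 13). Single members fell among ID proteins and inhibitory SMADs (SMAD7, -0.40, of 10), MAPK feedback genes (DUSP6, of 10), nuclear long non-coding RNAs (NEAT1, the 1 tested) and melanocyte genes (TRPM1, -0.46, of 15). CLK3 (-0.40) and SRSF5 (-0.48) fell among 16 CLK kinases and SR splicing factors.

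The remaining lists had 0 genes past limma's threshold in either direction. At an unadjusted p under 0.05, 4 rose and 2 fell of 27 G1/S and replication genes, 3 rose and 3 fell of 13 NF-kB targets, and 0 rose and 1 fell of 8 histone genes. Over all genes 7.95% rose and 11.3% fell at that level. The NF-kB counts in both directions and the G1/S rises lay above these shares, and the G1/S falls below. Counts this small are no result about a list. None of 6 interferon-stimulated genes moved at that level in either direction. Of the markers of other cell types, 1 of 4 fibroblast genes rose at an unadjusted p under 0.05, and 0 of 4 keratinocyte, 0 of 2 leukocyte and 0 of 3 retinal pigment epithelium genes moved at that level. Summed deposited levels of the fibroblast markers were 8.75 to 9.84 at 0 Gy and 9.94 to 10.7 at 3 h, and those of the melanocyte genes 1178 to 1285 and 1280 to 1426. Both sums were higher at 3 h on the deposited scale, on which the median of all probes had risen as well, and their part in the results above was not tested.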

How the data were processed

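RNA of 92-1 cells was measured on single-colour CodeLink arrays, and its title in the labels gave each array's group. The authors deposited 1 intensity per probe and array on a linear scale. How it was scaled is not given in the sources used here. Extraction used ISOGEN and then RNeasy, per the labels' protocols. Values were taken to log2, quantile normalized over 108 arrays and fitted with limma 3.58.1 (R 4.3.3; lmFit, eBayes with a trend) on the 18 arrays of 92-1 in 6 groups, two-sided, with Benjamini-Hochberg adjustment at 0.05 over all probes tested. Probes needed a value on all 6 arrays of the comparison (42653 of 54359) and a mean log2 above the 40th percentile (-0.48), and 31166 were tested. The line comparison used the 36 X-ray arrays at 0 Gy and 3 h in 12 groups, on probes with a value on all of them. Of 24377 annotated probes, 23472 had 1 gene symbol and 905 several, and 23434 matched RefSeq (GRCh38.p14) by Entrez identifier. A gene is represented by its tested probe with the highest mean, and in 49 of the 117 called genes with further tested probes at least 1 of those had the other sign. Named genes were the 15 largest rises and 15 largest falls among called genes whose groups did not overlap, the 5 largest each way for the differences between times, beams and lines (where under 3 passed, the 3 genes of lowest p), and members of 22 gene lists. The comparison, the lists and the rules were chosen with earlier results of these data known. Alternatives covered scaling, filters, the choice of samples in the fit, the variance trend, a replicate block, the probes of a gene and the leaving out of each array. Scripts were tested on simulated data. The number of arrays limits the precision. No pair of arrays held identical values. Deviations of same-numbered 0 Gy and 3 h arrays from their group means correlated with r = -0.0015, -0.13 and 0.39. Over all combinations of those arrays r ran from -0.44 to 0.42. These values do not settle whether the numbers pair the samples, and the reported fit treated the arrays as unpaired.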

Additional observations from a re-analysis of the deposited data

Results flagged for a closer look

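FAM174A differed between the beams at 3 h. Its change after X-rays exceeded that after carbon ions by 1.14 ± 0.11 (SE, log2, limma adjusted p = 2.81e-04). All 3 X-ray arrays at 3 h lay above all 3 of their controls. The carbon ion controls lay above the X-ray controls, and the part of the controls' level in this difference was not tested.

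These genes differed between 92-1 and the mean of the other 5 lines at 3 h after X-rays by limma's test of that difference. GDF15 (1.76), FAM174A (1.38), ST18 (1.37), CDKN1A (1.31) and GADD45A (1.23) rose more in 92-1. The probe named HDAC6 (-0.96), TOMM5 (-0.81), ICA1 (-0.69), FOSL1 (-0.69) and LINC01023 (-0.68) went lower in 92-1. For GDF15 and CDKN1A the spots of some of the other lines lay at or near the top of the array's range.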

How the results depend on the processing

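The 21 rises and 0 falls among p53 targets, and their median of 0.69, held under all alternatives (18 to 22 rises, median 0.62 to 0.85), and no named gene or list median changed sign. The median of all probes did, from -0.052 to 0.052 as deposited, and counts of probes were less stable. For X-rays at 3 h against 0 Gy, 1519 probes were called, 901 with median centring and 223 in a fit of these 6 arrays alone; the share of rises was 28.9%, 48.4% with median centring and 80.9% as deposited. With median centring, 0 mitotic genes rose and 2 fell. As deposited, 1550 probes were called for carbon ions at 3 h (4417 in the reported fit), 312 for X-rays at 1 h (557) and 554 for the difference between lines (223), 0 mitotic genes fell and their median was -0.14. Fitted on the groups of each contrast alone, X-rays at 1 h had 198 calls, 3 h against 1 h had 144 (446), and 0 mitotic genes rose and 1 fell. Leaving out 1 array at a time gave 689 to 1610 calls for X-rays at 3 h, and moved the count by over 1.5 times without 0 Gy array 1 (689), 0 Gy array 2 (732), 3 h array 1 (710) or 3 h array 3 (989). The same gave shares of rises of 25.1% to 38.4%, 234 to 546 calls at 1 h, 210 to 808 for 3 h against 1 h, 1703 to 3157 for carbon ions, 2 to 4 probes for the difference between beams, 82 to 481 for that between lines, 2 to 9 mitotic falls, 0 to 1 mitotic rises, mitotic medians of -0.37 to -0.16 and 19 to 22 rises of p53 targets. Counts moved by over 1.5 times without each array except 0 Gy array 3 at 1 h, 1 h array 3 for 3 h against 1 h and carbon ion 0 Gy array 1 for carbon ions. The difference between beams did so without X-ray 0 Gy array 1 or 3 h array 2 (4 probes each), and that between lines without 0 Gy array 1 (368), 0 Gy array 2 (82), 3 h array 1 (107) or 3 h array 3 (481). The replicate block gave 1392 calls for X-rays at 3 h, 1304 of them shared with the reported fit, and lost 1 of the 30 named genes. Normalizing over 18 arrays, allowing missing values and fitting only the contrast's groups do not apply to the comparison of lines and were not run for it. The files give no background, so how far dim genes such as BBC3 and TOMM5 lie above it is not known here.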
